A study of Macaca mulatta with 30 samples.

Results

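CD1A, CD1B and CD1E encode members of the CD1 family, cell surface or lysosomal relatives of the MHC class I heavy chain that bind lipids instead of peptides. They were chosen with earlier results of these arrays known, for their signal in thymus and, for CD1E, for the signal outside thymus, so their differences between tissues are described below without a test. Every probe set with the single symbol of one of these genes was taken, which gave 5 of 52865 probe sets and 3 of 14133 genes. CD1A (MmugDNA.20768.1.S1_at) and CD1B (MmugDNA.14303.1.S1_at) had 1 probe set each, and CD1E had 3. The CD1E probe sets are numbered by their mean signal, so that CD1E probe set 1 is the one whose identifier does not start with MmugDNA, CD1E probe set 2 is MmugDNA.32378.1.S1_at and CD1E probe set 3 is MmugDNA.22532.1.S1_at. No probe set was chosen by a threshold. CD1C had 1 probe set, which is reported with the related proteins, and CD1D was not analysed here.

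Rhesus macaque RNA came from cerebral cortex, pancreas, testis, thymus and a line of immortalized fibroblasts, with no treatment named for any of them. According to the methods the fibroblast RNA was made at Nebraska, the cerebral cortex RNA at Yerkes and the other RNAs at Oregon. From each RNA, 2 aliquots were labeled and hybridized with the rhesus GeneChip at each of the 3 centers Oregon, Nebraska and Yerkes, which gave 30 arrays, 6 from each tissue and 10 from each center. Each tissue was thus 1 RNA, and its arrays differ through labeling and hybridization and hold no spread among animals, whose age and number are not given in the sources used here. Values are log2 signals, so a difference of 1 is a doubling. Median signals of the arrays were between 5.95 and 6.22 at Oregon and Nebraska and between 6.58 and 6.81 at Yerkes, which the authors normalized separately, so arrays are compared within centers or with the center as a term. The paper judged the pancreas data poorer in quality than the rest, by scaling factors and standard errors, and advised caution with them. Every comparison with pancreas below shares this limit. In these bulk RNAs fewer cells of a type and less RNA per cell cannot be told apart.

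The labels were checked against summed signals of marker genes. These markers were chosen with earlier results of these arrays known, so the check is a description and not independent evidence for the labels. From these arrays the paper had picked TKTL1, a germ cell marker, and CD8A, a thymocyte marker, as differing strongly between tissues. The 3 neuron markers summed to 14.18 to 14.73 on the cerebral cortex arrays, the 3 acinar markers to 15.66 to 16.19 in pancreas and the 3 fibroblast markers to 14.09 to 14.81 in fibroblast, and none of these sums exceeded 8.40 in another tissue. The 6 cortical thymocyte markers measured summed to 13.57 to 14.01 in thymus and at most 9.96 elsewhere. All 5 testis somatic markers and 4 of 5 germ cell markers were higher in testis than in each other tissue, where 9.71% of all genes were. The exception was the protamine gene PRM1, a marker of late sperm development. It was called lower in testis, at 6.35, than in each other tissue (6.54 in cerebral cortex to 6.99 in pancreas), as 4.95% of all genes were.

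CD1 proteins pair with beta-2-microglobulin, sample lipids in the secretory and endosomal pathway and show them to T cells. CD1a recycles through early endosomes and CD1b through lysosomes. CD1e differs from both in that it is not displayed at the cell surface and works as a soluble protein of lysosomes that helps to edit lipid antigens. In thymus these genes are known from immature thymocytes of the cortex, and outside thymus from dendritic cells, with CD1a also on Langerhans cells of the skin.

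CD1A, the surface form, was high in thymus, and the testis arrays came next. In thymus its lowest, median and highest arrays were at 11.61, 11.86 and 12.23. In testis they were at 7.40, 7.55 and 8.01. In pancreas they were at 6.07, 6.29 and 7.09. Neither the thymus nor the testis arrays overlapped those of any other tissue. Fibroblast ranged from 5.67 to 6.60 with a median of 5.85, and cerebral cortex from 5.58 to 6.46 with a median of 5.70. Fibroblast and cerebral cortex overlapped and were apart at 1 of the 3 centers, whereas pancreas lay above fibroblast at all 3. The thymus mean was 11.91 ± 0.26 (SD, n = 6 arrays), which is 4.24 (SE 0.07) above testis, an 18.9-fold signal. Testis in turn was 1.18 (SE 0.07) above pancreas.

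CD1B followed the same order over the higher tissues. In thymus its lowest, median and highest arrays were at 12.02, 12.10 and 12.61. In testis they were at 7.84, 7.96 and 8.47. In pancreas they were at 5.86, 6.05 and 6.65. Again thymus and testis each stood apart from all other arrays. Cerebral cortex ranged from 5.28 to 6.24 and fibroblast from 5.08 to 5.93, and these overlapped. The thymus mean of 12.23 ± 0.26 (SD, n = 6 arrays) was 4.15 (SE 0.07) above testis, and testis was 1.90 (SE 0.07) above pancreas, a 3.74-fold signal.

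**Figure D1:**
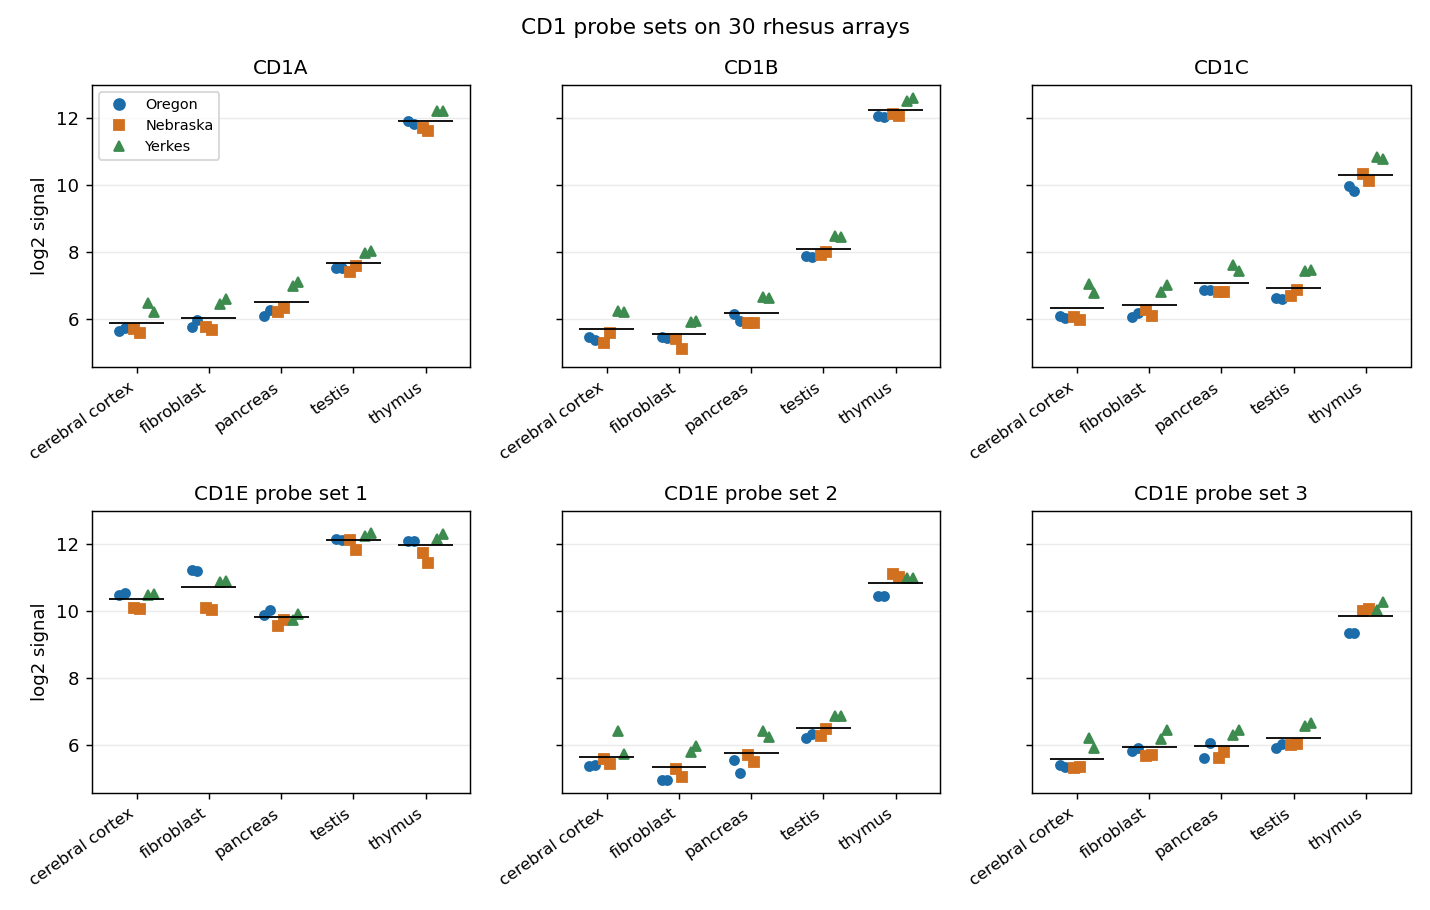
Log2 signal (y axis) of CD1A, CD1B, CD1C and the 3 CD1E probe sets on all 30 arrays, with tissues along the x axis, centers by color and symbol, and a line at each tissue mean. CD1E probe set 1 lies above 9.5 in every tissue, with testis and thymus near 12, and in the other panels the thymus arrays stand alone at the top.

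CD1E gave a different answer by probe set. CD1E probe set 1, which has the highest mean signal, was high on all 30 arrays. In testis its lowest, median and highest arrays were at 11.82, 12.12 and 12.32. In thymus they were at 11.43, 12.09 and 12.28. These ranges overlapped over all arrays, but testis lay above thymus without overlap at 2 of the 3 centers, by small gaps. At Oregon the lowest testis array was at 12.11 and the highest thymus array at 12.10. At Nebraska these were at 11.82 and 11.74, while aliquots there differed by 0.288 in testis and 0.305 in thymus. The testis mean of 12.12 ± 0.17 (SD, n = 6 arrays) was 0.16 (SE 0.10) above the thymus mean of 11.96 ± 0.32. In fibroblast the lowest, median and highest arrays were at 10.03, 10.88 and 11.21. In cerebral cortex they were at 10.05, 10.48 and 10.53. In pancreas they were at 9.54, 9.81 and 10.04. Thymus lay 1.25 above fibroblast without overlap. Fibroblast and cerebral cortex overlapped over all arrays but were apart at 2 of the 3 centers, and pancreas was below cerebral cortex without overlap. Within Oregon, Nebraska and Yerkes fibroblast was above pancreas by 1.24, 0.42 and 1.07. By rank CD1E probe set 1 was lowest on a fibroblast array, where it was above 97.3% of all probe sets. Such ranks describe the array only, since probe sets differ in brightness at equal RNA.

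The other CD1E probe sets were high in thymus only, among these tissues. On CD1E probe set 2 the lowest, median and highest thymus arrays were at 10.43, 10.99 and 11.09. The testis arrays were at 6.21, 6.39 and 6.85. The arrays of cerebral cortex, fibroblast and pancreas together ranged from 4.93 to 6.42. The thymus mean of 10.82 ± 0.30 (SD, n = 6 arrays) was 4.33 (SE 0.11) above testis, a 20.2-fold signal, and testis was 0.74 (SE 0.11) above pancreas, with overlap of the ranges but none within any center. On CD1E probe set 3 the thymus arrays ranged from 9.32 to 10.26. The testis arrays were at 5.90, 6.01 and 6.65. The arrays of cerebral cortex, fibroblast and pancreas ranged from 5.30 to 6.44, so testis overlapped them. Within centers testis and pancreas were apart at 2 of the 3. The thymus mean of 9.83 ± 0.40 (SD, n = 6 arrays) was 3.64 (SE 0.10) above testis, and testis was 0.23 (SE 0.10) above pancreas. A high signal of CD1E outside thymus thus rested on 1 of 3 probe sets. In 476 of the 1648 genes with 3 probe sets (28.9%), the brightest probe set peaked in a tissue where neither other probe set did. CD1E is among these genes, with testis 0.16 (SE 0.10) above thymus on CD1E probe set 1. The share counts the highest tissue only and does not measure how often 1 probe set is high in every tissue. Sequences of the probes were not analysed here, and what else CD1E probe set 1 may bind was not tested.

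On 4 of the 5 probe sets every thymus array was above every array of the other tissues, and the exception was CD1E probe set 1. Limma called 12.5% of all probe sets higher in thymus than in each of the other 4 tissues, which is given for scale only, since thymus signal chose these genes. Across the 30 arrays, after the mean of each center was subtracted, CD1A and CD1B had a Pearson r of 0.993. CD1E probe sets 2 and 3 had an r of 0.983 with each other and of 0.954 to 0.989 with CD1A and CD1B. CD1E probe set 1 had an r of 0.624 and 0.587 with CD1E probe sets 2 and 3, 0.686 with CD1A and 0.735 with CD1B. These coefficients are descriptions over arrays that share 5 RNAs, and the thymus arrays carry most of each.

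The center at which an array was run was not used to choose the genes. At Oregon, Nebraska and Yerkes the difference of thymus from testis was 4.34, 4.16 and 4.22 for CD1A and 4.18, 4.15 and 4.11 for CD1B. For CD1E probe set 2 it was 4.17, 4.69 and 4.14, and for CD1E probe set 3 it was 3.38, 4.01 and 3.53. For CD1E probe set 1, testis was above thymus by 0.03, 0.38 and 0.06. The center thus changed no order of thymus and testis on any of these probe sets, but Nebraska gave the largest difference on all 3 of CD1E. On CD1E probe set 1 the Nebraska aliquots themselves differed by 0.288 in testis and 0.305 in thymus.

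**Figure D2:**
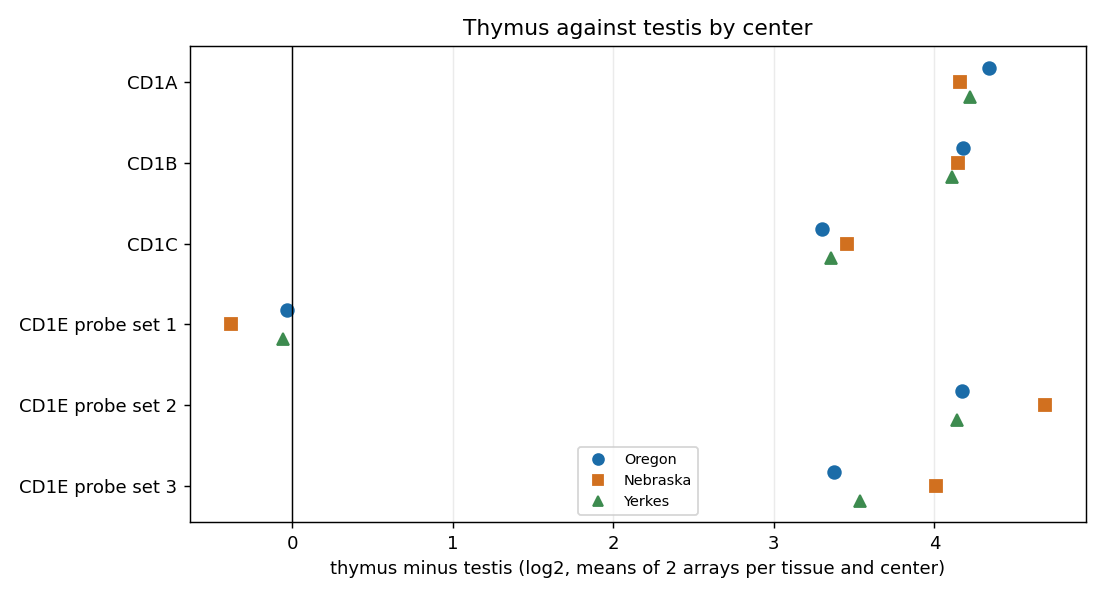
Difference between the thymus and testis means (x axis, log2, 2 arrays per tissue and center) for each CD1 probe set (y axis) at each center. CD1E probe set 1 lies at or left of 0 at all 3 centers and the other probe sets lie between 3.30 and 4.69.

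Whether tissue differences depended on the center was tested with limma's F test of 8 interaction coefficients, adjusted over all probe sets. It was called for 2 of 5 probe sets, CD1E probe set 1 (adjusted p = 0.00149) and CD1E probe set 3 (adjusted p = 0.0240), where 28.3% of all probe sets were called. It was not called for CD1A (limma adjusted p = 0.123), CD1B (0.195) or CD1E probe set 2 (0.104). With each array centred on its median CD1A was called as well (limma adjusted p = 0.0387, range over the alternatives 0.0387 to 0.302), and without any of the 4 thymus arrays from Oregon and Nebraska the call of CD1E probe set 3 was lost (0.0620 to 0.114). Without either Yerkes array of cerebral cortex CD1E probe set 2 was called (limma adjusted p = 0.0103 and 0.00908), and among probe sets in the upper part of mean signal too (0.0401).

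On CD1E probe set 1 the tissue that moved most between centers was fibroblast. The Oregon arrays were at 11.21 and 11.20. The Nebraska arrays were at 10.08 and 10.03. The Yerkes arrays were at 10.87 and 10.88. Fibroblast was above cerebral cortex by 0.70 at Oregon and 0.38 at Yerkes, whereas at Nebraska cerebral cortex was at 10.07 and fibroblast at 10.06. The 3' control probe set of ACTB, cytoskeletal actin, whose distance from the 5' one is used to follow RNA integrity, exceeded the latter in fibroblast by 1.42 at Oregon, 2.62 at Nebraska and 1.97 at Yerkes, and its part in this result was not tested. In thymus the probe sets went opposite ways between centers. CD1E probe set 1 was at 12.09 at Oregon and 11.59 at Nebraska, CD1E probe set 2 at 10.43 and 11.05, and CD1E probe set 3 at 9.33 and 10.01. In thymus CD1A was at 11.86 at Oregon and 11.65 at Nebraska, and CD1B at 12.03 and 12.10. At Yerkes CD1E probe sets 1, 2 and 3 were at 12.22, 10.99 and 10.14 in thymus. For GAPDH, a glycolytic enzyme, the 3' control exceeded the 5' one in thymus by 0.92, 0.29 and 0.20 at Oregon, Nebraska and Yerkes. For ACTB this difference was 0.81, -0.02 and -0.06. The part of these differences was likewise not tested.

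Aliquots differed little. Over 15 pairs of aliquots, each pair from the same RNA and center, the median absolute difference was 0.0971 for CD1A, 0.0417 for CD1B and 0.0529 for CD1E probe set 1. For CD1E probe sets 2 and 3 it was 0.163 and 0.0989. The largest was 0.682, for CD1E probe set 2 in cerebral cortex at Yerkes, still far below the 4.33 by which thymus exceeded testis on that probe set. On CD1E probe set 1 the largest was 0.305, in thymus at Nebraska, which is more than the 0.16 between testis and thymus there over all arrays. Interaction between tissue and center made up 0.127% of the variance of CD1A, 0.0827% of that of CD1B and 2.46% of that of CD1E probe set 1, and tissue 98.0%, 98.5% and 91.0%.

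The genes most similar in profile to CD1E probe set 1 were not among those of the other probe sets, whereas CXCR4 was shared by CD1A, CD1B and CD1E probe set 2. For CD1A they were TRAF3IP3 (r = 0.996), the chemokine receptor CXCR4 (0.996), DNTT (0.995) and RAG2 (0.995), which act in antigen receptor rearrangement, and the T cell adaptor TRAT1 (0.994). For CD1B they were the leukocyte phosphatase PTPRC (r = 0.997), ARHGDIB (0.994), CD1A (0.993), CXCR4 (0.992) and the pentose phosphate enzyme RPIA (0.992). For CD1E probe set 1 they were SON (r = 0.977), a splicing cofactor, TASOR2 (0.973), the centrosome gene CEP192 (0.971), the zinc finger gene ZNF644 (0.968) and the transcription factor SP3 (0.967). Relative to its center means SON was at 1.02 in testis, 1.05 in thymus, -0.20 in fibroblast, -0.73 in cerebral cortex and -1.14 in pancreas. For CD1E probe set 2 they were GMFG, RHOH, CPB2, LOC715904 and CXCR4 (r = 0.994 to 0.995), and for CD1E probe set 3 LOC698161, ICOS, CD8B, GPR65 and P2RY10 (0.991 to 0.993). Each r was taken over 30 arrays after subtraction of center means, with 1 probe set per gene, and is a description.

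**Figure D3:**
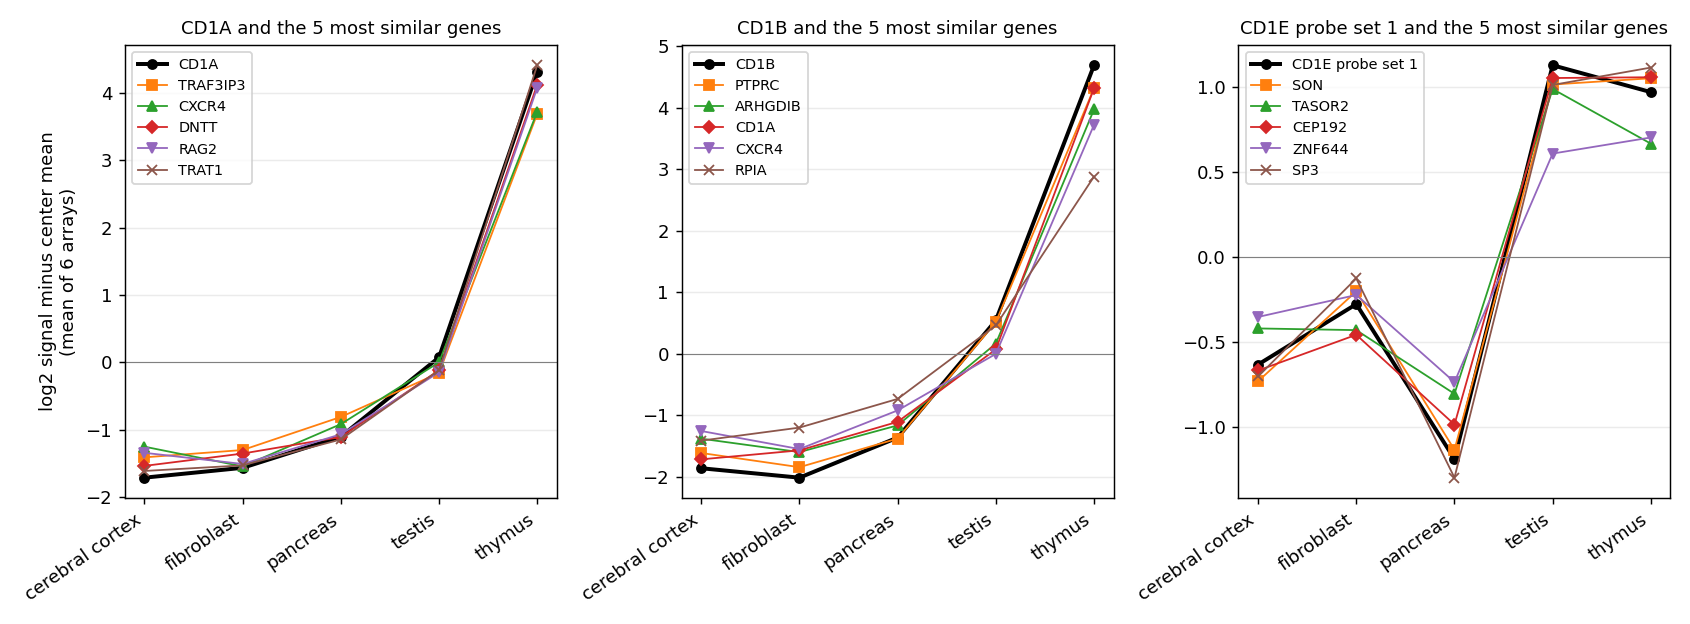
Log2 signal minus the center mean (y axis, mean of 6 arrays) by tissue (x axis) for CD1A, CD1B and CD1E probe set 1 (black) and the 5 genes most similar to each. The CD1A and CD1B panels peak in thymus, and in the CD1E probe set 1 panel testis and thymus are both high and pancreas is lowest.

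The proteins related to CD1 were compared between tissues by limma with center as a term. The call "higher" required a signal above that of each of the other 4 tissues, with every adjusted p under 0.05. Genes of this list and of the later ones were chosen with earlier results of these arrays known. Shares of all genes are therefore given for scale only. Of 6 class I-like genes measured, 2 were higher in thymus, where 12.6% of all genes were. CD1C is 1 of these 2 and belongs to the same family as the genes chosen for thymus signal. Its call is thus not an independent result, and no p is given. CD1C, which samples endosomal lipids like CD1A and CD1B, was at 10.30 ± 0.41 (SD, n = 6 arrays) in thymus. It was at 7.06 in pancreas, the next tissue, a difference of 3.24 (SE 0.07). In testis CD1C was at 6.93, whereas CD1A and CD1B had testis as the next tissue. MICB, a stress ligand of natural killer cells, was 1.40 (SE 0.08) above testis. FCGRT, the Fc receptor that recycles antibodies, was higher in testis, by 0.36 (SE 0.07) over fibroblast, but not after quantile normalization of all 30 arrays, without a center term or on the Oregon arrays alone. The iron regulator HFE and the lipid binding protein AZGP1 were at 7.81 and 7.57 in pancreas and 6.70 and 6.35 in thymus. The protein C receptor PROCR was at 10.04 in fibroblast and 4.92 in thymus.

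Of 26 measured genes for loading and trafficking of CD1, 6 were higher in thymus than in each other tissue, where 12.6% of all genes were, and the median difference of thymus from the mean of the other tissues was -0.13, as over all genes (-0.13). CD74, the invariant chain, was 1.70 (SE 0.12) above testis, the lysosomal protease CTSS 1.24 (SE 0.17) above fibroblast and ARF6, a GTPase of endosomal recycling, 0.64 (SE 0.07) above testis. AP3M1, a subunit of the adaptor that takes cargo to lysosomes, was 0.35 (SE 0.09) above fibroblast. The light chain of CD1, B2M, was 0.21 (SE 0.09) above testis and the lysosomal lipase LIPA 0.20 (SE 0.08) above fibroblast. In 11 alternative settings CD74 and ARF6 were called in all 11, CTSS in 10, AP3M1 in 8, LIPA in 6 and B2M in 5, and the count was 3 without a center term, at Oregon alone and at Yerkes alone. With the 2 arrays of a tissue at a center as a random block (estimated correlation 0.360) the count was 4, and B2M and LIPA were not called. The lysosomal sterol carrier NPC2 was at 12.26 in fibroblast and 9.47 in thymus, the protease CTSL at 11.73 and 8.45 and the glycolipid enzyme HEXA at 10.09 and 8.07. MTTP, the transfer protein that lipidates CD1 in the endoplasmic reticulum, was at 6.21 in pancreas and 5.25 in thymus. No gene of the list was called lower in thymus than in each other tissue (limma, 0 also at an unadjusted p under 0.05), where 9.3% of all genes were, but 3 were after quantile normalization of all 30 arrays, 3 without the pancreas arrays, 2 at Oregon alone and 1 at Nebraska alone.

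Of 8 genes of T cells that recognize CD1 or act with them, 6 were higher in thymus, where 12.6% of all genes were, with a median difference from the mean of the other tissues of 2.40. The T cell adaptors TRAT1 and SH2D1A exceeded the next tissue by 4.53 (SE 0.11) and 4.49 (SE 0.12), the surface protein CD5 2.33 (SE 0.09), the adhesion receptor SLAMF1 2.29 (SE 0.10), EGR2 1.08 (SE 0.12) and the chemokine receptor CXCR6 by 0.28 (SE 0.08), a call lost without a center term and at Oregon or Yerkes alone. TRAT1 and CD5 are general T cell genes. ZBTB16, the transcription factor that defines natural killer T cells, was at 6.97 in thymus, 8.80 in pancreas and 8.61 in cerebral cortex, and SLAMF6 at 6.94 in thymus and 6.96 in pancreas.

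Of 10 transcription factors of early thymocytes, 7 were higher in thymus (12.6% of all genes), with a median difference of 2.75. TCF7 was 4.43 (SE 0.09), GATA3 4.29 (SE 0.13), MYB 4.13 (SE 0.08) and BCL11B 2.54 (SE 0.16) above the next tissue, and IKZF1 2.32 (SE 0.10), ETS1 2.06 (SE 0.07) and RUNX1 0.23 (SE 0.08). RUNX1 was not called with each array centred on its median, without a center term or at Nebraska or Yerkes alone. TCF12 was at 9.72 in fibroblast and 7.38 in thymus, and TCF3 at 8.14 in testis and 8.02 in thymus.

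Cell types known for CD1 were followed by their markers beside the CD1 signals. The markers were listed with earlier results of these arrays known, and the paper had picked CD8A from them for its high signal in 1 tissue. The counts and shares below are thus descriptions and not independent evidence of enrichment. All 6 cortical thymocyte genes measured were higher in thymus, where 12.6% of all genes were, among them CD8A (4.52, SE 0.06), CD8B (4.25, SE 0.07), DNTT (4.24, SE 0.09) and RAG2 (4.22, SE 0.09). Of 12 genes of dendritic and Langerhans cells, 7 were, led by IRF8 (2.38, SE 0.08), CLEC9A (1.34, SE 0.11) and CCR7 (0.90, SE 0.10), and 4 without a center term. The others were FLT3, LAMP3, FCER1A and BATF3, between 0.29 and 0.76 above the next tissue. Some of these signals were low in thymus itself. FCER1A was at 4.95 there, CLEC9A at 6.31 and LAMP3 at 6.80, on average above 11.1%, 50.8% and 64.3% of all probe sets. CD207, the Langerhans cell lectin, was at 6.33 in thymus and 6.47 in pancreas, and CD209 at 5.37 and 5.83. The list summed to 10.58 to 11.18 in thymus and at most 10.46 elsewhere. Of 5 B cell genes 1 was higher in thymus, MS4A1 (2.53, SE 0.12), and of 6 genes of macrophages and monocytes 1, LYZ (3.40, SE 0.09), shares near that of all genes. These became 4 and 2 without the pancreas arrays, where thymus had to exceed fewer tissues. The share of all genes under that rule is not given here, so these 2 counts have no background beside them.

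In testis, where CD1A and CD1B were above cerebral cortex, fibroblast and pancreas, several thymocyte genes were as well. With thymus left out of the rule, a choice made after the values were seen, 4 of 6 thymocyte genes were higher in testis than in these 3 tissues, where 15.9% of all genes were. CD8A was 1.04 (SE 0.06) above the highest of them, DNTT 0.99 (SE 0.09), RAG2 0.92 (SE 0.09) and CD8B 0.43 (SE 0.07), whereas CD4 was at 6.59 in testis and 6.72 in pancreas and PTCRA at 6.76 and 7.14. The thymocyte list summed to 9.36 to 9.96 in testis, 8.83 to 9.56 in pancreas and 8.31 to 9.23 in fibroblast and cerebral cortex. The same rule called 3 of 10 early thymocyte factors, MYB (1.56, SE 0.08), TCF3 (0.51, SE 0.09) and TCF7 (0.48, SE 0.09), and 1 of 8 genes of CD1-reactive T cells, TRAT1 (1.03, SE 0.11). It called 1 of 12 dendritic cell genes, ZBTB46, and 2 with arrays centred on their medians, with all 30 arrays quantile normalized, without the pancreas arrays or without the first Nebraska testis aliquot. It also called 1 of 5 B cell genes, CD22, and 1 of 6 genes of macrophages and monocytes, LYZ (0.71, SE 0.09). The dendritic cell list summed to 9.47 to 10.16 in testis and 9.74 to 10.46 in pancreas, and CD207, at 6.05 in testis, was 1 of the genes called lower there than in each other tissue, as 4.95% of all genes were. What part cells of these types have in the testis signals was not tested.

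**Figure D4:**
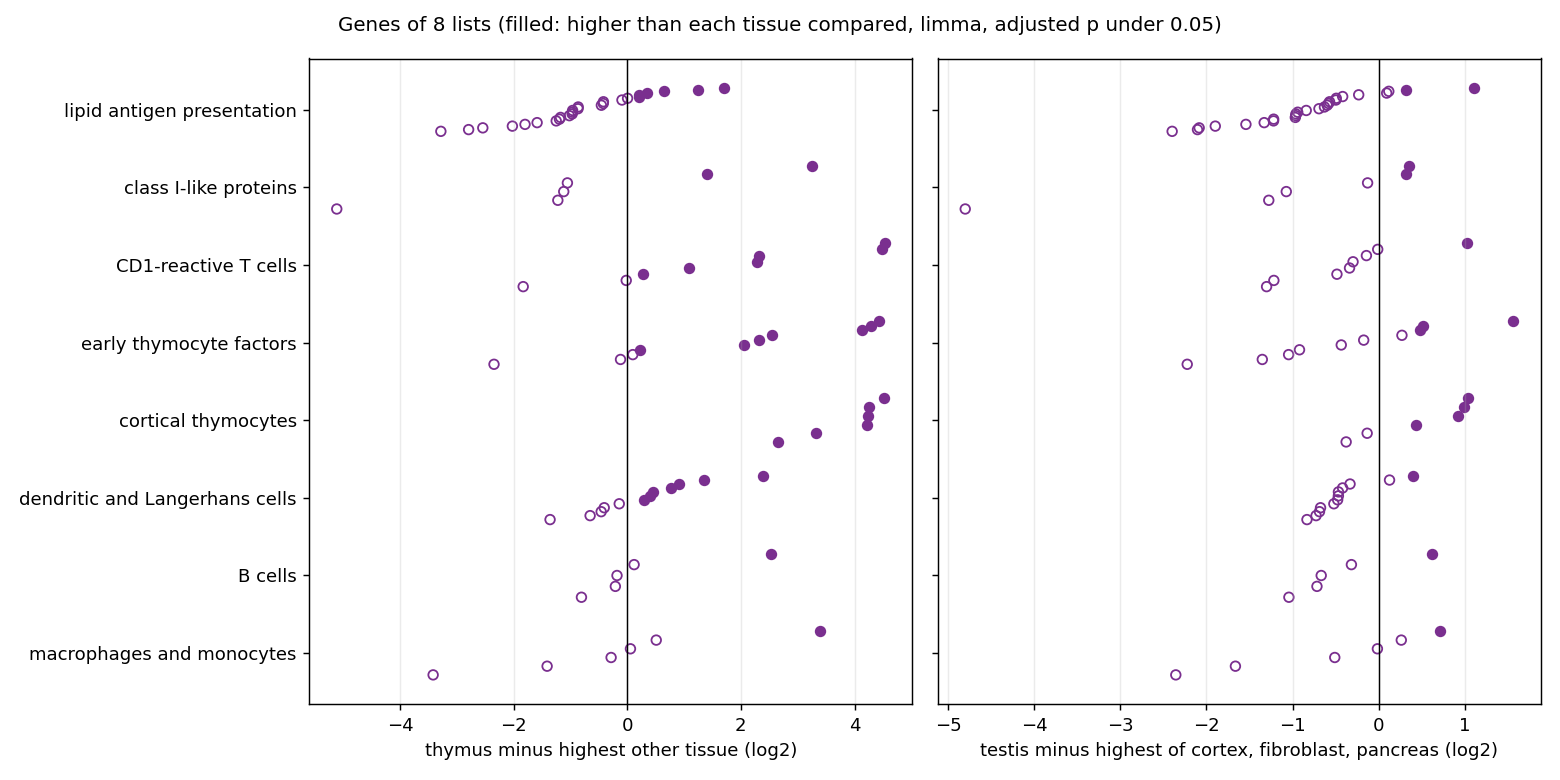
Log2 difference between thymus and the highest other tissue (left, x axis) and between testis and the highest of cerebral cortex, fibroblast and pancreas (right, x axis) for the measured genes of 8 lists (y axis). Filled symbols mark genes that limma called, as all 6 cortical thymocyte genes did on the left and 4 of them on the right.

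In the RefSeq gene table of assembly T2T-MMU8v2.0 the CD1 genes stand in the order CD1E, CD1B, CD1C, CD1A and CD1D on chromosome 1, with the uncharacterized gene LOC709286 between CD1B and CD1C. Of the 4 nearest measured genes on each side, FCRL2, a receptor of B cells, alone was called higher in thymus, where 12.6% of all genes were. It was at 6.48 against 5.40 in testis (1.08, SE 0.09), and the share called was near that of all genes. The olfactory receptor genes OR10T2, OR10K1 and OR6Y1 and LOC719887, on the side of CD1E, were at 5.50, 4.96, 5.99 and 5.53 in thymus and at 5.20, 4.73, 5.83 and 5.36 in testis. On the side of CD1D, KIRREL1 was at 9.19 in testis and 9.45 in fibroblast, and FCRL1 at 9.08 in pancreas. CD5L, a secreted macrophage protein, was higher in testis, where 9.71% of all genes were, at 8.68 against 7.49 in thymus.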

How the data were processed

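According to the methods, the authors corrected the background with MAS 5.0, quantile normalized the arrays of each center separately, and summarized all 30 arrays by RMA into the deposited log2 signals, which the labels also name as RMA. These steps were not repeated, and the number of arrays limits the precision. Probe sets were named from the platform annotation, in which 24969 had 1 symbol, 361 several and 27535 none. Limma 3.58.1 in R 4.3.3 was fitted to all 52865 probe sets, with tissue and center as terms and, for the interaction, their product. p-values were adjusted by the Benjamini-Hochberg method over all probe sets. SAM, which the study used within centers, gives no differences between pairs of tissues and was not used. The fits were tested on simulated data with known changes. Each gene was represented by its probe set with the highest mean. Genes and lists were chosen with earlier results of these data known. Named were all CD1 probe sets, the 5 genes most similar to each probe set of CD1A, CD1B and CD1E, the called genes of the 4 lists of related proteins, examples of the opposite sign, and the 4 nearest measured genes on each side. Of 35 genes for loading and trafficking 26 were measured, of 10 of CD1-reactive T cells 8, of 9 class I-like 6, of 12 early thymocyte factors 10, of 12 thymocyte markers 6, of 13 dendritic cell markers 12, of 7 B cell markers 5 and of 7 macrophage markers 6. With 1 RNA per tissue, p-values measure technical spread only. Alternatives were another normalization, centering of arrays, only the brighter probe sets (above the median of mean signal), no center term, block, single centers, no pancreas arrays, the mean of all probe sets of a gene, and each array left out.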

Additional observations from a re-analysis of the deposited data

Results flagged for a closer look

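Dependence of tissue differences on the center was called for CD1E probe set 1 (limma interaction, adjusted p = 0.00149, and 0.000205 to 0.00313 over the 5 alternatives other than leaving out arrays). It was also called for CD1E probe set 3 (limma interaction, adjusted p = 0.0240, and 0.00613 to 0.0333). Such a call was made for 28.3% of all probe sets. The call of CD1E probe set 3 was lost when any 1 of the 4 thymus arrays from Oregon and Nebraska was left out (limma interaction, adjusted p = 0.0620 to 0.114). In 25 groups of 6 arrays, the 5 probe sets by tissue, 1 array was farther from the rest of its group than Dixon's critical value allows. It was aliquot 1 of cerebral cortex at Yerkes for CD1E probe set 2, at 6.39, where chance flags about 1 in 20 groups. The 6 arrays span centers that were normalized separately, and with each array centred on its median none of the 25 groups held such an array (0 of 25). The other Yerkes aliquot was at 5.71.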

How the results depend on the processing

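The result that turned was CD1E. By its brightest probe set the highest other tissue, testis, was 0.16 above thymus, so the difference of thymus was -0.16, and it was 2.61 by the mean of the 3 probe sets, 4.33 by CD1E probe set 2 and 3.64 by CD1E probe set 3 (testis minus thymus -2.61, -4.33 and -3.64). The last 2 were chosen after seeing the data, and the cause was not tested. CD1A and CD1B kept their direction in every alternative run, between 4.16 and 4.34 and between 4.07 and 4.18, and with each array left out CD1E probe set 1 stayed between -0.20 and -0.09. The main counts of called genes moved as follows, with causes not tested beyond fewer arrays or probe sets. Shares of all genes are not given for these alternatives, and without the pancreas arrays the rule compares fewer tissues. For genes higher in thymus, the lipid antigen presentation list went from 6 to 3 without a center term and at Oregon or Yerkes alone. The dendritic cell list went from 7 to 4 without a center term and to 3 among the brighter probe sets, where fewer of its probe sets were tested. The B cell list went from 1 to 2 with arrays centred on their medians and at Nebraska alone, to 4 without the pancreas arrays and to 0 among the brighter probe sets. The macrophage list went from 1 to 2 among the brighter probe sets, at Oregon or Yerkes alone and without the pancreas arrays, and to 3 with the mean of all probe sets. For genes higher in testis, the class I-like list went from 1 to 0 after quantile normalization of all 30 arrays, without a center term and at Oregon alone, and the early thymocyte factors went from 0 to 1 at Nebraska alone. Genes higher in testis than in cerebral cortex, fibroblast and pancreas went from 1 to 2 in the CD1-reactive T cell list without the pancreas arrays and in the macrophage list at Oregon alone and with the mean of all probe sets, which also gave 1 gene lower in thymus, in place of 0, in the class I-like, early thymocyte and dendritic cell lists. With each array left out the B cell and macrophage counts lay between 1 and 2 and the number of CD1 probe sets with an interaction between 1 and 3. Aliquot numbers were not taken to pair the arrays, as 3 of 30 correlations between same-numbered aliquots were above 0.1 (-0.304 to 0.350). All 3, among cerebral cortex, testis and thymus (0.163 to 0.350), and the 3 lowest, of these with fibroblast (-0.304 to -0.198), were at Yerkes. With a replicate block of center and aliquot number 2 CD1 probe sets had an interaction, as without it, and the lipid list had 5 genes higher in thymus in place of 6. Of 414 values from the alternatives other than leaving out arrays, 372 kept their direction and side of the threshold or stayed within the limits set for a value or count. Detection calls were not analysed here, so whether CD1 signals near the array medians stood above background was not tested.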
